A study of Mus musculus with 80 samples.

Results

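Glul, St6galnac3, Slc41a3, Rhobtb1, Leo1, Acyp1, Rnf114 and Zfp1003 are 8 protein-coding genes, of 56941 genes counted in mouse left ventricle, whose transcripts differed between males exposed to a mixed radiation field and unirradiated males. They were selected on that difference. In the comparison of male mixed field with male sham libraries 11 of 15879 tested genes (0.0693%) had an adjusted p under 0.05, these 8 together with Bmp10, Nr1d1 and Shld1, so the values of that comparison are given here as a description and carry no test. The levels of the 8 genes were then followed through the other groups, which took no part in the selection.

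All 80 libraries came from left ventricular tissue of C57Bl/6J mice, an inbred strain with no engineered allele named in the labels, and each of 8 groups has 10. In each sex the groups are the mixed field at 50 cGy on the normal diet, the Western diet at 0 cGy, gamma radiation at 100 cGy on the normal diet, and the sham group at 0 cGy on the normal diet. Absorbed doses are in centigray (cGy). The labels do not name the components of the mixed field, and they give neither the age of the mice, the time after exposure nor the hour of tissue collection. Nor do they state that each library is a different animal, and the p-values therefore reflect only the variation among libraries, part of which may be technical. Within every group, 5 libraries carry title numbers 1 to 20 and 5 carry title numbers 21 to 40. What separates these ranges is not given, and they are called the first and the second range below.

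The 8 genes do not belong to a single pathway. Glul encodes glutamine synthetase, which joins ammonia to glutamate. Acyp1 encodes an acylphosphatase, Slc41a3 a member of a family of magnesium transporters, and St6galnac3 a sialyltransferase that adds sialic acid to sugar chains of glycoproteins and glycolipids. Rhobtb1 encodes a protein that can act as an adaptor of the CUL3 ubiquitin ligase, and Rnf114 a RING finger ubiquitin ligase. Leo1 encodes a subunit of the PAF1 complex, which travels with RNA polymerase during transcript elongation, and Zfp1003 is annotated as a zinc finger protein. Because Nr1d1 was called beside them, genes of the circadian clock were examined as well. In this feedback loop BMAL1 and CLOCK activate the Per, Cry, Nr1d1 and Dbp genes, PER and CRY proteins restrain that activation, and NR1D1 represses Bmal1. Heart muscle cells carry such a clock of their own.

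Library totals ran from 13484776 to 22143504 counts, with a mean of 16518589. As a check for heart muscle, which does not separate the left ventricle from other chambers, the levels of 12 cardiomyocyte transcripts were summed. The sum lay between 64270 and 95380 CPM (counts scaled to a library total of 1000000) in every library. Atrial transcripts were uneven in males: Myl7, an atrial myosin light chain, exceeded 10 CPM in 2 of 5 mixed field libraries, 5 of 5 Western, 5 of 5 gamma and 5 of 5 sham libraries of the first range, and in 1, 0, 1 and 1 of 5 libraries of the second range, in the same order of groups. No female library exceeded it. Female gamma replicate 7 had almost no Xist (0.129 CPM), where the other female libraries had 102.2 CPM or more, while the Y-linked Ddx3y was at 0 CPM in every female library. Female mixed field replicate 10 stood apart from its group. The counts of genes among the 8 that were called between female groups, each 0, were also 0 without these 2 libraries. In whole tissue, fewer cells of a type and less RNA per cell cannot be told apart.

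Promoter sequences are shown for 4 of the genes, Leo1, Slc41a3 and Rhobtb1, whose levels varied with Bmal1, and St6galnac3, which holds an E-box. Each runs from 250 bases before to 50 after the start of the GENCODE vM39 canonical transcript, 5′ to 3′ on the gene's strand, read from the GRCm39 genome. Both strands were searched for the E-box CACGTG, bound by BMAL1 with CLOCK, its variant CACGTT, the D-box TTANGTAA, bound by DBP, TEF and HLF where N is any base, and the ROR element, bound by NR1D1. Matches are in capitals.
Leo1 (chr9:75348511-75348810, plus strand): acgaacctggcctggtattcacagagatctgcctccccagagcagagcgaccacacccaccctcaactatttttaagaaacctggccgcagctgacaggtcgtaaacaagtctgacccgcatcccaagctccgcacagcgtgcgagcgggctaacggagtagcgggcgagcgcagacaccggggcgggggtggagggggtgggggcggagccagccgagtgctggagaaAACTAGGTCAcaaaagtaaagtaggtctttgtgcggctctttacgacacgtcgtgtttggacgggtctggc
St6galnac3 (chr3:153430767-153431066, minus strand): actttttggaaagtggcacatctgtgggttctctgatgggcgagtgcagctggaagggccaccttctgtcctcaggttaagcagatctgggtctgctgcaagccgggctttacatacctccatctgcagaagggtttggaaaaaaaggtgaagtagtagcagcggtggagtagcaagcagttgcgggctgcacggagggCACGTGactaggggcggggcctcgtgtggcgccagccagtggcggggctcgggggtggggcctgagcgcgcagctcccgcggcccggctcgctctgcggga
Slc41a3 (chr6:90581427-90581726, plus strand): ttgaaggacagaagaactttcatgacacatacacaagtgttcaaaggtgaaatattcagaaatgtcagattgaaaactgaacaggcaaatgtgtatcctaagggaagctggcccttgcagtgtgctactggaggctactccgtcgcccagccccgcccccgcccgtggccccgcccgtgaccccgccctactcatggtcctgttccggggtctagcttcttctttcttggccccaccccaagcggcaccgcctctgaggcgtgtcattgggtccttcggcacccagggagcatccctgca
Rhobtb1 (chr10:69048704-69049003, plus strand): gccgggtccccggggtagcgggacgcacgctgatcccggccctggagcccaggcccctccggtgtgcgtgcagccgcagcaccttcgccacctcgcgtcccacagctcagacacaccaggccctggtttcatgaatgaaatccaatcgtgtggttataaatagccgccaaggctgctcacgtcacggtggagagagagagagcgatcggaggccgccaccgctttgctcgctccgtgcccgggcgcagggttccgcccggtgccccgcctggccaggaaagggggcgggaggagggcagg
The Leo1 promoter held the ROR element AACTAGGTCA, starting 21 bases before the transcript start, a motif found in 0.611% of 21757 promoters of protein-coding genes cut in the same way. The St6galnac3 promoter held an E-box starting 51 bases before the start, found in 7.82% of promoters. CACGTT occurs in 5.0% and the D-box in 2.3% of promoters. The letters of these 4 motifs were not in the windows of Slc41a3, Rhobtb1, Glul, Acyp1, Rnf114 or Zfp1003. A match is a description of the sequence and not evidence of binding.

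Among genes of metabolism, Glul (ENSMUSG00000026473, chromosome 1, 153775690 to 153785469 on GRCm39) was by far the most abundant of the 8 per length of transcript. Over all libraries it averaged 101.9 CPM per kilobase of annotated exon, against 3.84 for Acyp1. In male mixed field libraries Glul lay between 330.1 and 657 CPM with a median of 456.5, against 307 to 393 CPM with a median of 336 in male sham libraries. Of the 10 mixed field libraries 9 lay above the sham median and the lowest lay below it. The fitted log2 difference was 0.44 ± 0.08 (SE). Acyp1 (ENSMUSG00000008822, chromosome 12, 85318550 to 85335212) lay between 5.91 and 13.6 CPM with a median of 8.7 in male mixed field libraries, against 4.63 to 8.35 CPM with a median of 6.19 in male sham libraries. Its highest mixed field libraries, at 13.3 and 13.6 CPM, both belong to the first range, where the mean was 10.5 ± 2.72 CPM, while it was 7.965 ± 2.12 CPM in the second (SD, n = 5 each). The Acyp1 log2 difference of 0.55 ± 0.12 had the largest adjusted p that still passed the threshold (0.0418), and the next genes outside were Gm38882, Cys1 and Adam22 (0.05106 each).

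Slc41a3 (ENSMUSG00000030089, chromosome 6, 90581677 to 90623394) and St6galnac3 (ENSMUSG00000052544, chromosome 3, 152903903 to 153430816) were the genes of transport and of sugar chain synthesis, and both were lower in the male mixed field group. Slc41a3 lay between 33.2 and 58.6 CPM with a median of 50.3 in male mixed field libraries, against 55.55 to 111 CPM with a median of 79.3 in male sham libraries. No mixed field library reached the sham median, and the log2 difference was -0.72 ± 0.14. St6galnac3 is a weakly expressed gene, at 0.496 CPM per kilobase. It lay between 2.45 and 3.8 CPM with a median of 3.13 in male mixed field libraries, against 3.38 to 6.845 CPM with a median of 5.85 in male sham libraries. All 10 mixed field libraries lay below the sham median and the ends of the ranges overlapped, with a log2 difference of -0.83 ± 0.15.

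Of the genes of the ubiquitin system, Rhobtb1 (ENSMUSG00000019944, chromosome 10, 68987045 to 69127621) differed more and Rnf114 (ENSMUSG00000006418, chromosome 2, 167334565 to 167358093) least of the 8. Rhobtb1 lay between 87.5 and 213 CPM with a median of 147 in male mixed field libraries, against 64.9 to 116 CPM with a median of 97.1 in male sham libraries. Mixed field replicate 5 was the lowest library of its group for Rhobtb1, and also for Glul, Rnf114 and Zfp1003. It also had the highest share of counts in Rn18s-rs5, a ribosomal RNA gene, of the 5 first range mixed field libraries. That share was 1.632% in this library and 0.164 to 0.536% in the other 4. It was 1.581 to 1.955% in male sham replicates 1 to 4 and 0.293% in replicate 5, the first range of that group. In the second range it was 1.374 to 2.726% in male mixed field and 1.499 to 3.216% in male sham libraries. The part of this share in the differences was not tested. The Rhobtb1 log2 difference was 0.69 ± 0.14. Rnf114 lay between 57.5 and 90.3 CPM with a median of 75 in male mixed field libraries, against 55.4 to 68.8 CPM with a median of 61.1 in male sham libraries, a log2 difference of 0.28 ± 0.06. Rnf114 also varied least over all 80 libraries, with a coefficient of variation of 10.4%, while the other 7 genes ran from 17.4 to 30.7%.

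The nuclear proteins moved in opposite directions. Leo1 (ENSMUSG00000042487, chromosome 9, 75348761 to 75373726) lay between 9.32 and 13.9 CPM with a median of 11.2 in male mixed field libraries, against 13.15 to 18.98 CPM with a median of 16.6 in male sham libraries. The highest mixed field library lay above 2 sham libraries, the other 9 lay below all 10, and the log2 difference was -0.53 ± 0.12. Zfp1003 (ENSMUSG00000074521, chromosome 2, 177538889 to 177551310) lay between 36.4 and 102.4 CPM with a median of 66.4 in male mixed field libraries, against 26.8 to 50.3 CPM with a median of 43.55 in male sham libraries. Its log2 difference was 0.73 ± 0.15. Fitted within the first range and within the second range alone, all 8 differences had the same sign as over all libraries. Both ranges are parts of the libraries that selected the genes, so these signs follow largely from the selection and carry no test. Bmp10, an atrial growth factor, had a log2 difference of -4.29 ± 0.75 in the same comparison. That value rests on 1 sham library at 148.9 CPM, and the medians were 0.706 CPM in male mixed field and 0.269 CPM in male sham libraries. The part of the uneven atrial transcripts in these differences was not tested. The summed levels of endothelial, fibroblast and macrophage transcripts overlapped between male mixed field and male sham libraries, at 1662 to 2634 against 1885 to 2338 CPM, 1307 to 4257 against 2180 to 3246 CPM, and 288 to 703 against 283 to 458 CPM for these 3 lists of 12 genes.

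**Figure D1:**
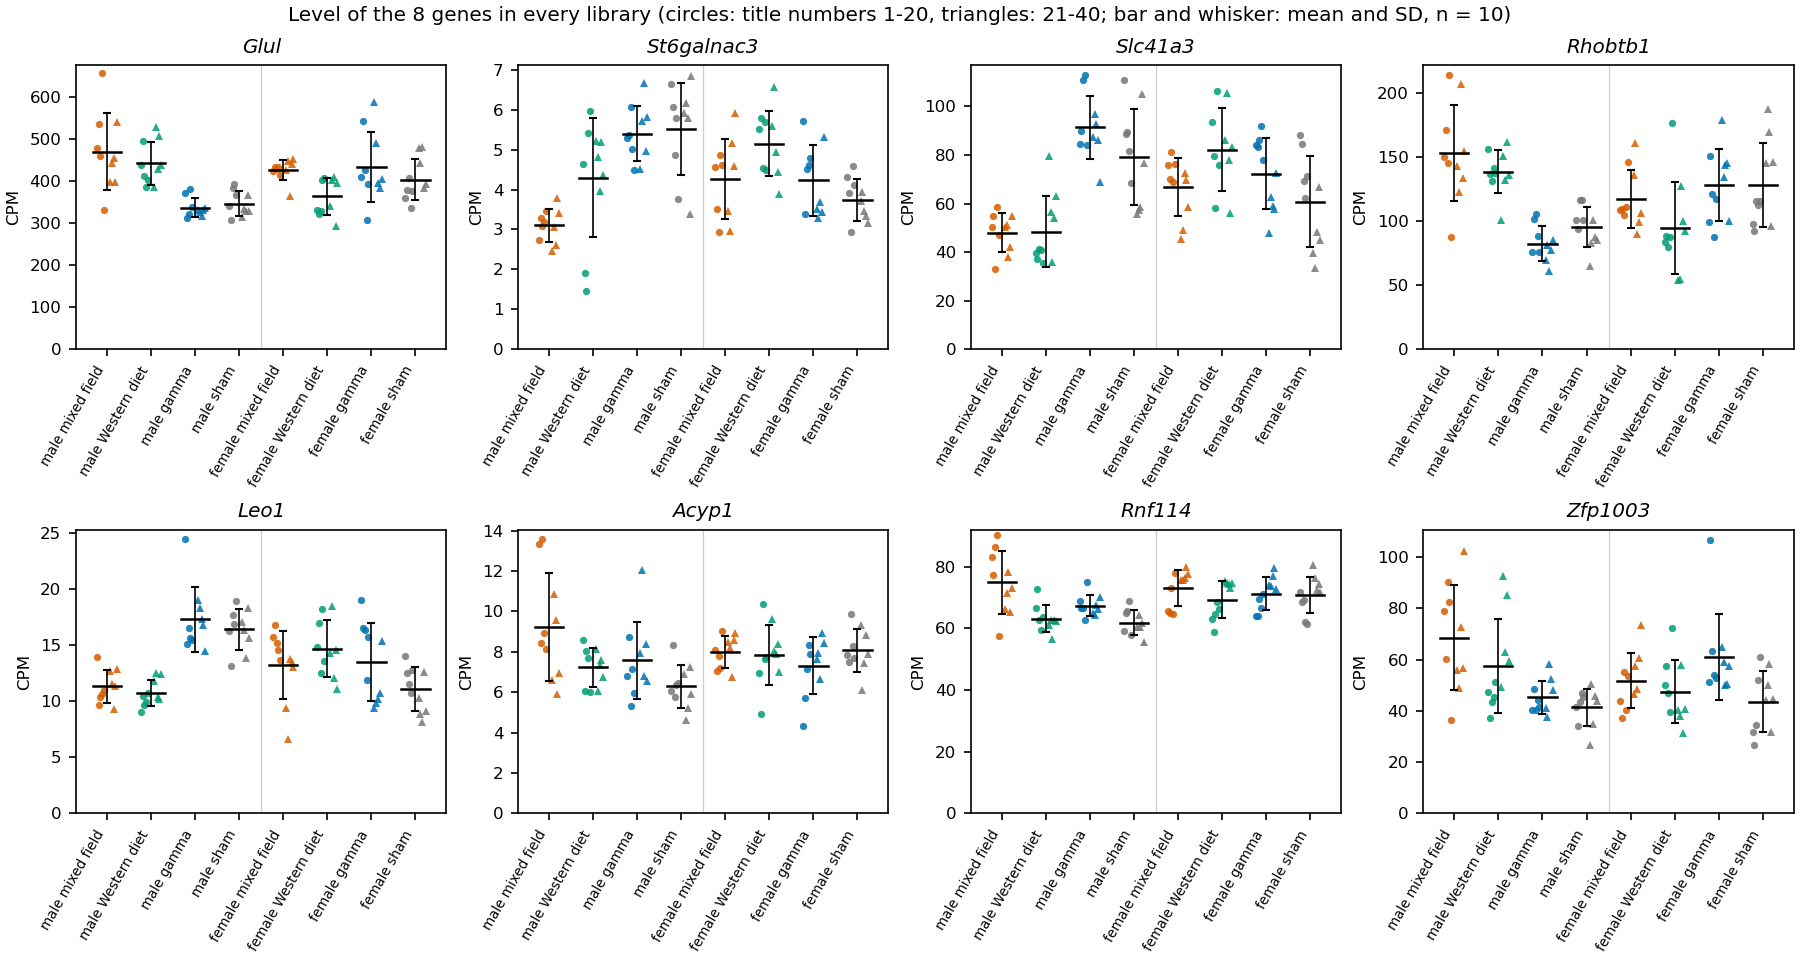
Level of each gene in CPM (vertical axes, starting at 0) in all 80 libraries, with 8 groups of 10 on each horizontal axis, circles for title numbers 1 to 20, triangles for 21 to 40, and bars for the mean and SD. Slc41a3 and Leo1 are low in both the male mixed field and the male Western groups, and Glul and Rhobtb1 are high in both.

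The male Western and male gamma libraries were not in the comparison that selected the 8 genes, so the comparison between them was tested. Both comparisons come from 1 fit over all 80 libraries and share each gene's estimated spread. Genes with a small estimated spread are favoured in both, so the share called here is not fully independent of the selection. Of the 8, 4 did: Glul and Rhobtb1 were higher, and Slc41a3 and Leo1 lower, in Western than in gamma libraries. That is 4 of 8 genes, where 132 of all 15879 genes (0.831%) were called, 43 higher and 89 lower. Glul lay between 385 and 529 CPM with a median of 433 in male Western libraries, against 312.5 to 382 CPM with a median of 331 in male gamma libraries. The groups did not overlap, and the log2 difference was 0.39 ± 0.08 (edgeR quasi-likelihood test, adjusted p = 0.004625). Rhobtb1 lay between 101 and 161 CPM with a median of 137 in male Western libraries, against 61.2 to 106 CPM with a median of 79.1 in male gamma libraries. Every Western library lay above the gamma median and the ranges overlapped through the lowest Western library, with a log2 difference of 0.75 ± 0.14 (adjusted p = 0.001287).

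Slc41a3 lay between 35.5 and 79.7 CPM with a median of 41.1 in male Western libraries, against 68.8 to 113 CPM with a median of 88.6 in male gamma libraries. The log2 difference was -0.92 ± 0.15 (adjusted p = 5.684e-05), and all 10 Western libraries lay below the gamma median. In the first range the 5 Western libraries were tightly placed, at 35.5 to 41.4 CPM, while those of the second range spread from 35.8 to 79.7 CPM. Leo1 lay between 9.09 and 12.5 CPM with a median of 10.4 in male Western libraries, against 14.5 to 24.4 CPM with a median of 16.7 in male gamma libraries. These groups did not overlap, with a log2 difference of -0.69 ± 0.12 (adjusted p = 0.000158).

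The other 4 genes were not called between male Western and male gamma libraries. The differences of St6galnac3 and Zfp1003 had the signs seen under the mixed field, at -0.33 ± 0.14 (adjusted p = 0.4457) and 0.34 ± 0.15 (adjusted p = 0.4762) on the log2 scale. St6galnac3 was uneven within the Western group, where replicates 2 and 3 had 1.9 and 1.47 CPM and the other 8 libraries had 3.97 to 5.96 CPM. Acyp1 and Rnf114 gave log2 differences of -0.07 and -0.09, with 95% intervals from -0.31 to 0.17 and from -0.21 to 0.02. Over the 8 genes the median size of the log2 difference was 0.37, beside 0.1 over all tested genes.

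The difference between male Western and male gamma libraries was also fitted within each range of title numbers alone, with 5 libraries a group. A call within a single range does not show that the ranges differ, because fewer libraries can by themselves remove a call. Whether these differences varied with range was not tested. The uncalled values given next had the signs seen over both ranges. In the first range alone Slc41a3 and Leo1 were called, and Glul (log2 difference 0.31, adjusted p = 0.407) and Rhobtb1 (0.66, adjusted p = 0.1191) were not. In the second range alone Glul and Rhobtb1 were called, and Slc41a3 (-0.58, adjusted p = 0.2728) and Leo1 (-0.59, adjusted p = 0.1393) were not. By edgeR, 1506 of 15987 genes had an unadjusted p under 0.05 in the first range alone, among them 4 of the 8. The second range alone gave 1077 of 15840 genes, among them 6 of the 8. Without the libraries above 10 CPM of Myl7, which leaves only second range males in these groups, no gene was called by edgeR, 754 genes and 5 of the 8 had an unadjusted p under 0.05, and the log2 differences were 0.49 for Glul, 0.91 for Rhobtb1, -0.65 for Slc41a3 and -0.64 for Leo1.

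The remaining male comparisons share libraries with the one that selected the genes, so their values are set side by side without a test. Between male Western and male sham libraries, where 0.397% of all genes were called, the log2 differences were 0.35 for Glul, -0.71 for Slc41a3, 0.54 for Rhobtb1, -0.61 for Leo1, -0.36 for St6galnac3, 0.48 for Zfp1003, 0.2 for Acyp1 and 0.03 for Rnf114. The value of Slc41a3 was -0.29 in the second range alone and -1.16 in the first. Between male gamma and male sham libraries, where 0.176% of all genes were called, they ran from -0.21 for Rhobtb1 to 0.27 for Acyp1. Between male mixed field and male gamma libraries, where 0.573% of all genes were called, they ran from -0.93 for Slc41a3 to 0.89 for Rhobtb1.

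**Figure D2:**
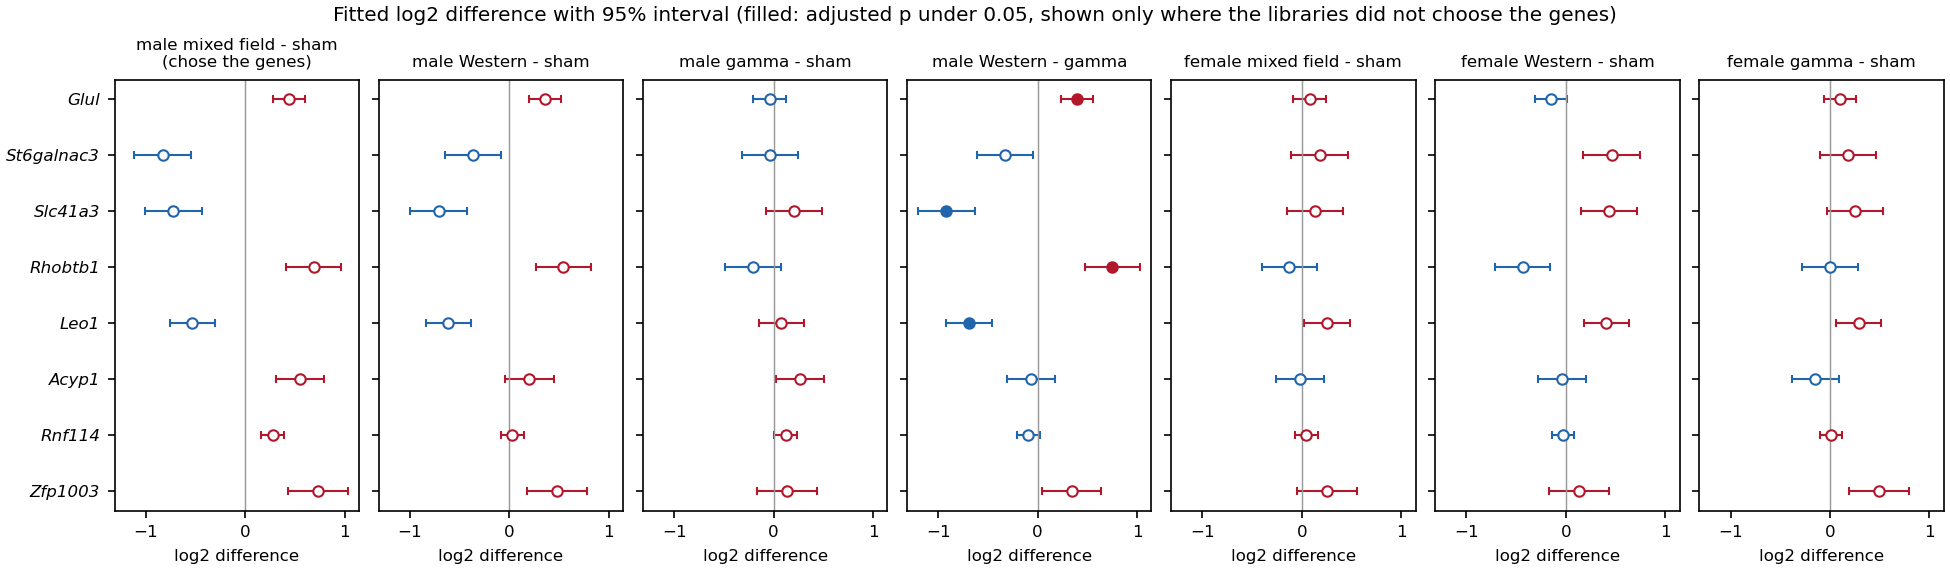
Fitted log2 difference with its 95% interval (horizontal axes) for each gene (vertical axis) in 7 comparisons, with filled points where the adjusted p was under 0.05 and the libraries took no part in the selection. Filled points appear in 1 panel, male Western minus male gamma, for Glul, Slc41a3, Rhobtb1 and Leo1.

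In females none of the 8 genes was called in any comparison between treatments. Between female mixed field and female sham libraries 0 of 15879 genes were called (0%) by edgeR, while 1027 genes had an unadjusted p under 0.05, among them Leo1. DESeq2 and limma voom also called 0 genes. Slc41a3 lay between 45.2 and 81.1 CPM with a median of 69.9 in female mixed field libraries, against 33.3 to 88.3 CPM with a median of 64.6 in female sham libraries. Its log2 difference was 0.13 with a 95% interval from -0.15 to 0.41, opposite in sign to the -0.72 of males. St6galnac3 lay between 2.94 and 5.92 CPM with a median of 4.58 in female mixed field libraries, against 2.93 to 4.59 CPM with a median of 3.81 in female sham libraries. The log2 difference of 0.18, with an interval from -0.1 to 0.47, again had the sign opposite to males.

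Glul lay between 364.5 and 453 CPM with a median of 430.3 in female mixed field libraries, against 335 to 481 CPM with a median of 389 in female sham libraries. Its log2 difference was 0.08, with a 95% interval from -0.08 to 0.24. Rhobtb1 had a log2 difference of -0.13, with an interval from -0.4 to 0.15, and Leo1 one of 0.25, with an interval from 0.03 to 0.48. Zfp1003 had one of 0.25, with an interval from -0.05 to 0.55. Acyp1 and Rnf114 had values of -0.02 and 0.05. The fitted values had the male sign in 3 of the 8 genes, Glul, Rnf114 and Zfp1003. Because the male values selected the genes, the difference between the sexes in the mixed field effect was not tested.

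Between female gamma and female sham libraries 0 of 15879 genes were called (0%) by edgeR, and 1643 had an unadjusted p under 0.05, among them Leo1 and Zfp1003. With DESeq2 3 genes were called and with limma voom 0, none of them among the 8. Zfp1003 lay between 50.1 and 106.7 CPM with a median of 55.6 in female gamma libraries, against 26.7 to 61 CPM with a median of 44.5 in female sham libraries. All 10 gamma libraries lay above the sham median, and the log2 difference of 0.49 ± 0.15 did not pass the adjustment over all genes (adjusted p = 0.3781). Without female gamma replicate 2, the highest library, it was 0.36. Between female mixed field and female gamma libraries 0.0252% of all genes and none of the 8 were called.

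Between female Western and female sham libraries 3 of 15879 genes (0.0189%) and none of the 8 were called. Of the 8, 4 had an unadjusted p under 0.05, where 1174 of all genes did. Leo1 lay between 11.1 and 18.5 CPM with a median of 14.5 in female Western libraries, against 8.15 to 14.1 CPM with a median of 11.2 in female sham libraries, a log2 difference of 0.4 ± 0.12 (adjusted p = 0.3137). St6galnac3 (0.46 ± 0.14, adjusted p = 0.4461), Slc41a3 (0.43 ± 0.14, adjusted p = 0.4701) and Rhobtb1 (-0.44 ± 0.14, adjusted p = 0.4647) likewise missed the threshold. In these 4 genes the female Western difference had the sign opposite to the male Western difference from sham.

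Between males and females of the Western and gamma groups 2391 genes (15.1%) were called and none of the 8. Rnf114 came nearest, with a log2 difference of -0.11 ± 0.04 (adjusted p = 0.05558). Its level was 63.1 ± 4.33 CPM in male and 69.3 ± 5.92 CPM in female Western libraries, and 67.3 ± 3.46 CPM in male and 71.3 ± 5.26 CPM in female gamma libraries (SD, n = 10 each). Within the second range alone it was called, at -0.23 (adjusted p = 0.000242). Within the first range alone Slc41a3, at -0.44 (adjusted p = 0.000678), and Zfp1003, at -0.41 (adjusted p = 0.03339), were called instead. By edgeR, 5764 of 15987 genes had an unadjusted p under 0.05 in the first range alone, among them 3 of the 8. The second range alone gave 3419 of 15840 genes, among them 1 of the 8. These calls are not shown to be particular to the selected genes. Over both ranges the other 5 genes had log2 differences between -0.05 and 0.05. These values average the Western and gamma groups, in which the means of the sexes differed in opposite directions. Mean Rhobtb1 was 138 CPM in male and 94.4 CPM in female Western libraries. In gamma libraries it was 82.1 and 128 CPM, respectively. Glul had 442 and 363 CPM in Western, and 336.5 and 433 CPM in gamma libraries. For Leo1 these means were 10.7 and 14.7 CPM, and 17.3 and 13.5 CPM. Sex differences within each group were not tested.

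In females many genes differed between the ranges of title numbers. The second range differed from the first in 3683 genes (23.2%), and Slc41a3, Leo1 and Rnf114 were among them. With calls this common over all genes, these 3 calls are not shown to be particular to the selected genes. Slc41a3 was lower in the second range, with a log2 difference of -0.38 ± 0.09 (edgeR, adjusted p = 0.001363). In female sham libraries its 5 values lay between 33.3 and 66.9 CPM in the second range, against 62.4 to 88.3 CPM in the first. Leo1 was also lower, with a log2 difference of -0.35 ± 0.07 (adjusted p = 0.0001971), and its 5 female gamma values lay between 9.44 and 15.3 CPM in the second range, against 11.9 to 19.1 CPM in the first. Rnf114 was higher in the second range, with a log2 difference of 0.18 ± 0.03 (adjusted p = 6.659e-05). In the female Western group its 5 libraries had 73 to 75.4 CPM in the second range, against 58.8 to 68.5 CPM in the first, with no overlap.

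In males the ranges of title numbers differed in 4568 genes (28.8%), and none of the 8 was called. Rnf114 again came nearest, at -0.08 ± 0.03 (adjusted p = 0.05335), with the sign opposite to females. Whether the female mixed field effect differed between the ranges was tested as an interaction, which called 220 genes (1.39%) and none of the 8. The largest of these differences among the 8 was that of Rhobtb1, at -0.45 ± 0.27 (adjusted p = 0.3889).

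Clock genes moved with Slc41a3, Leo1, Rhobtb1 and Glul across the male groups. Bmal1 lay between 0.845 and 8.81 CPM with a median of 2.1 in male Western libraries, against 7.78 to 15.55 CPM with a median of 10.7 in male gamma libraries. Per2, a repressor of the loop, lay between 21 and 54.3 CPM with a median of 30.5 in male Western libraries, against 6.92 to 18.9 CPM with a median of 13 in male gamma libraries, with no overlap. Bmal1 had a log2 difference of -1.81 ± 0.34 (edgeR, adjusted p = 0.0009555), Per2 of 1.4 ± 0.23 (adjusted p = 0.0001106). Of the 19 clock genes measured, 5 were higher and 2 lower in male Western than in male gamma libraries. Tef (0.85 ± 0.13, adjusted p = 3.237e-05) and Hlf (1.1 ± 0.22, adjusted p = 0.002179), which encode D-box binding proteins, were among the higher ones. The median log2 difference over the 19 was 0.39, beside -0.0046 over all genes.

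In the male mixed field group Bmal1 had a median of 2.04 CPM and Per2 one of 34.8 CPM, against 6.96 and 20.7 CPM in male sham libraries. Nr1d1 lay between 81.6 and 134 CPM with a median of 102 in male mixed field libraries, against 107 to 216 CPM with a median of 156 in male sham libraries. Low Bmal1 and high Per2 accompanied low Slc41a3 and Leo1 and high Rhobtb1 in both the male mixed field and the male Western groups. In females Bmal1 had a median of 7.06 CPM in mixed field, 12.2 CPM in Western and 9.72 CPM in gamma libraries, against 2.6 CPM in sham libraries, the lowest of the 4 groups. Female sham was likewise the female group of lowest mean Slc41a3 and Leo1. Bmal1 was the 1 clock gene called between female Western and female sham libraries, with a log2 difference of 1.66 ± 0.33 (adjusted p = 0.0199). It also fell by 1.1 on the log2 scale in the second range of females relative to the first (adjusted p = 1.002e-05), the contrast in which Slc41a3 and Leo1 were lower.

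The male Western and gamma comparison was refitted with the first 2 principal components of the 19 clock genes as terms, which carry 47 and 14.9% of their variance. None of the 8 genes was then called, and 10 genes were called in all. Of the 8, 2 had an unadjusted p under 0.05, where 1809 of all 15879 genes did. Of the 19 clock genes, 5 were higher and 2 lower between these same groups, so the terms carry part of the group difference. Smaller values after their addition follow in part from that, and the role of the clock was not tested. The log2 difference of Slc41a3 was -0.21, that of Leo1 -0.11 and that of Rhobtb1 0.17, while that of Glul was 0.31. Of the 4 values, that of Glul was nearest to the one without these terms.

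**Figure D3:**
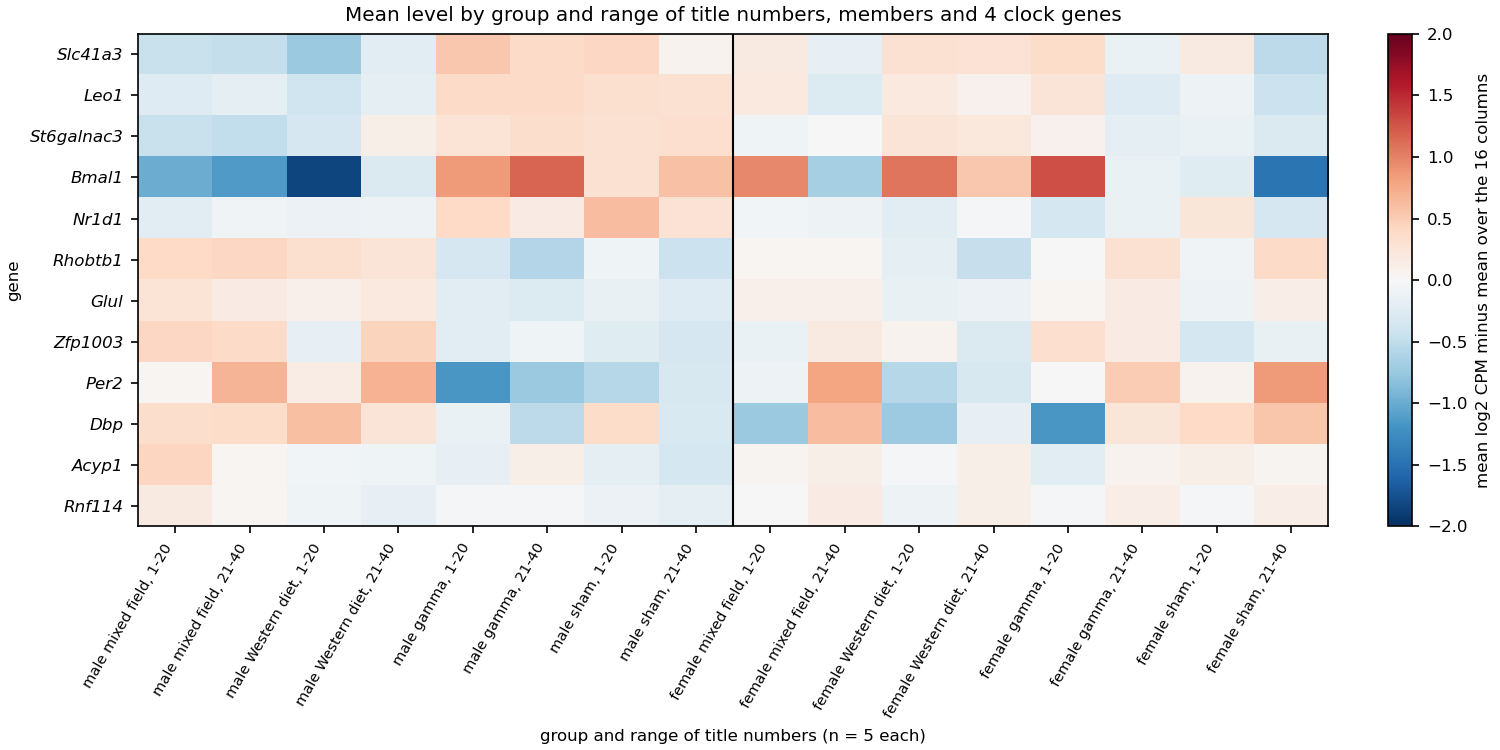
Mean log2 CPM of the 8 genes and 4 clock genes (rows) in each group and range of title numbers (columns, n = 5 libraries each), as the difference from the gene's mean over the 16 columns (color scale). Slc41a3 and Leo1 are blue in the male mixed field and Western columns and in the second range of female sham, where Bmal1 is blue too, and Rhobtb1 is red there.

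Whether the genes vary together among libraries treated alike was examined after the mean of each group and range was subtracted. Among the 8 genes and Bmal1, Dbp, Per2 and Nr1d1 this gave 60 relations over 80 libraries, 28 of them between 2 of the 8 genes. By Benjamini-Hochberg adjusted permutation p over the 60 relations, 17 passed, of which 6 belong to the 28. How many such relations other expressed genes would give was not examined, so the counts are not shown to be particular to these genes. In the 60 libraries that took no part in the selection 17 were called, and 14 were called in both sets of libraries. Rhobtb1 and Per2 had r = 0.69 and rho = 0.66 over the 60 libraries (permutation p = 1e-05, the smallest that 100000 permutations can give, adjusted p = 0.0006), and r = 0.64 without the 2 libraries farthest from the median. Rhobtb1 and Bmal1 ran opposite, with r = -0.64 and rho = -0.58 (permutation p = 3e-05, adjusted p = 0.0009) and r = -0.59 without 2 libraries. Both signs are those of the differences between the male Western and male gamma groups.

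Leo1 and Slc41a3 followed Bmal1 in the same 60 libraries. Leo1 and Bmal1 had r = 0.55 and rho = 0.53 (permutation p = 0.00027, adjusted p = 0.0027) and r = 0.54 without 2 libraries. Slc41a3 and Bmal1 had r = 0.51 and rho = 0.44 (permutation p = 0.00095, adjusted p = 0.00712) and r = 0.49 without 2 libraries. The pair also varied with each other, at r = 0.46 and rho = 0.41 (permutation p = 0.00136, adjusted p = 0.00742), with r = 0.42 without 2 libraries. Rhobtb1 ran against both: with Leo1 r was -0.55 and rho -0.53 (permutation p = 0.0002, adjusted p = 0.0027), and r = -0.55 without 2 libraries. With Slc41a3 r was -0.48 and rho -0.50 (permutation p = 0.00218, adjusted p = 0.0101), and r = -0.48 without 2 libraries.

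Zfp1003 varied with Rhobtb1 and with Glul. Over the 60 libraries Rhobtb1 and Zfp1003 had r = 0.49 and rho = 0.43 (permutation p = 0.00024, adjusted p = 0.0027), with r = 0.4 without 2 libraries. Glul and Zfp1003 had r = 0.43 and rho = 0.37 (permutation p = 0.00263, adjusted p = 0.0113), with r = 0.34 without 2 libraries. Zfp1003 and Nr1d1 ran opposite, at r = -0.48 and rho = -0.46 (permutation p = 0.00134, adjusted p = 0.00742), with r = -0.43 without 2 libraries. Glul and Rnf114 had r = 0.41 and rho = 0.31 over all 80 libraries (permutation p = 0.00717, adjusted p = 0.0307). Without 2 libraries that r was 0.19, and over the 60 libraries it was 0.15 (permutation p = 0.22, adjusted p = 0.426). The size of r thus depended on which libraries were included. The rank correlation passed over all 80 libraries (adjusted permutation p = 0.0291) and was 0.24 over the 60 (adjusted permutation p = 0.181). Over the 60 libraries Glul was not called with any of the 4 clock genes. With Bmal1 r was -0.18 (permutation p = 0.255, adjusted p = 0.463) and with Per2 0.31 (permutation p = 0.0399, adjusted p = 0.104). Over all 80 libraries Glul was called with Nr1d1 alone of the 4, at r = -0.31 (permutation p = 0.01, adjusted p = 0.0375). Acyp1 was in none of the called relations.

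**Figure D4:**
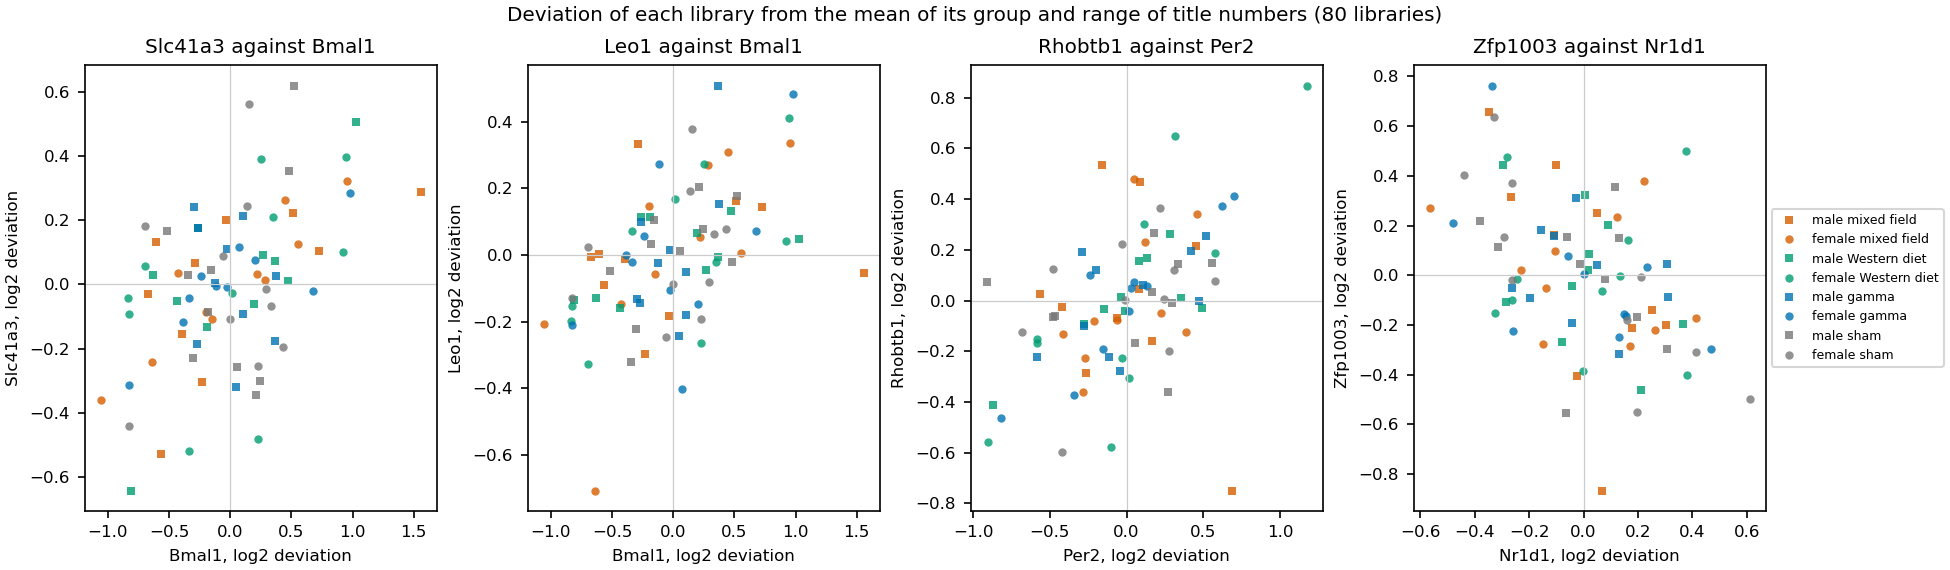
Deviation of each of 80 libraries from the mean of its group and range of title numbers on the log2 scale, for a clock gene (horizontal axes) and a selected gene (vertical axes), colored by treatment, with squares for males and circles for females. Slc41a3 and Leo1 rise with Bmal1, Rhobtb1 rises with Per2 and Zfp1003 falls with Nr1d1.

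For each gene the 3 genes of most similar deviations over the 80 libraries were taken from 12423 genes of at least 1 CPM, with Pearson's r as a description. For Rhobtb1 these were Corin, the protease that activates natriuretic peptides (r = 0.75), Herpud1, a protein of endoplasmic reticulum stress (0.72), and Epb41, a membrane skeleton protein (0.72). For Acyp1 they were Micos13, Ndufs6 and Timm13 (0.73, 0.72 and 0.72), all nuclear genes of mitochondrial proteins. For Leo1 they were Ndufa10, a subunit of respiratory complex I, Clybl, a mitochondrial enzyme, and Cryab, a small heat shock protein (0.61, 0.6 and 0.59). For Glul they were Tmem144, Rnf144b and Atg13 (0.68, 0.68 and 0.63), for Slc41a3 Col5a3, Sppl2b and Tpra1 (0.6, 0.58 and 0.56), for St6galnac3 Zfp948, Zfp950 and Spag1 (0.58, 0.56 and 0.51), and for Rnf114 Bsdc1, Grin2c and Itgb5 (0.62, 0.58 and 0.56).

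For Zfp1003 the most similar genes were Zfp970 (0.76), Tfdp2 (0.71) and Pik3r1 (0.7). Zfp970 lies on the same chromosome, 382391 bases before the start of Zfp1003, at a mean of 26.6 CPM. Of the stretches of 100 bases in the canonical Zfp1003 transcript, 43.5% also occur in transcripts of 21 other genes of the searched region of chromosome 2, and 13.1% occur in Zfp970, so the counts of these 2 genes may share reads. Other zinc finger genes starting within 1000000 bases were Zfp971 (3.8 CPM, 5.76% of the stretches), Zfp931 (5.3 CPM), Zfp972 (0.589 CPM), which overlaps Zfp1003 on the opposite strand, and Zfp1010, which was too low to be tested. The other 7 selected genes shared no such stretch with the transcripts searched. Annotated genes on the opposite strand overlap several of the 8. Over all libraries Acyp1 had 10160 counts and Zc2hc1c, which overlaps it, 5319, and Rnf114 had 91149 counts and Spata2, which overlaps it, 22100. The totals were 530155 for Glul and 1366 for Teddm2, and 153547 for Rhobtb1 and 2148 for A930033H14Rik. The strand setting of the counting is unknown here, and a share of those reads cannot be told apart.

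Other genes of the same pathways were not called in the tested comparisons between treatments. Apart from the clock genes, the lists held 25 measured genes of glutamine metabolism, 21 of sialylation, 17 of magnesium transport, 19 around RHOBTB and CUL3, 27 of the PAF1 complex and elongation, and 4 relatives of Acyp1 and Rnf114. None of these genes was called between male Western and male gamma libraries, nor in the 4 comparisons between female groups. The medians of their log2 differences between male Western and male gamma libraries lay between -0.05 and 0.03, beside -0.0046 over all genes. Gfpt2, an enzyme that uses glutamine for amino sugar synthesis, came nearest at -0.47 ± 0.14 (edgeR, adjusted p = 0.08121). In the glutamine list 1 gene was higher and 9 were lower in males than in females of the Western and gamma groups, where 15.1% of all genes were called.

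Ordered by mean level over the 8 groups, neighbouring groups differed by less than their pooled SD for Glul, Slc41a3, Leo1, Acyp1 and Zfp1003 at every step. The exceptions were St6galnac3 between female sham (3.75 ± 0.53 CPM) and male mixed field libraries (3.1 ± 0.42 CPM), Rhobtb1 between female mixed field (117 ± 22.6 CPM) and male sham libraries (94.9 ± 15.6 CPM), and Rnf114 between male gamma (67.3 ± 3.46 CPM) and male Western libraries (63.1 ± 4.33 CPM). St6galnac3 was lowest of all groups in male mixed field and highest in male sham libraries. Slc41a3 ran from 48 ± 8.075 CPM in male mixed field libraries to 91.4 ± 13.1 CPM in male gamma libraries, and Leo1 from 10.7 ± 1.16 CPM in male Western to 17.3 ± 2.88 CPM in male gamma libraries.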

How the data were processed

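RNA was measured in left ventricle by poly-A selected libraries sequenced as paired ends, per the labels' protocols and the series' design text. The authors deposited raw counts per Ensembl gene, whole numbers in 1 table of 56941 genes and 80 columns named by sample titles. FastQC 0.11.9, STAR 2.7.8a and the GRCm39 (mm39) genome are named in the submitters' processing notes. The counting tool, strand setting and annotation were not given in the sources used here. GENCODE vM39 gave symbols and coordinates for 56323 genes. The 8 genes, the gene lists and the tests were chosen with earlier results of these data known.

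Counts were scaled by TMM and given as CPM. The edgeR quasi-likelihood test (edgeR 4.0.16, R 4.3.3) was fitted to 15879 genes kept by filterByExpr, with 1 coefficient for each of 8 groups. Comparisons between ranges of title numbers added 1 range term for each sex to the 8 group coefficients. The interaction of the female mixed field with range used 1 coefficient for each group and range. Genes with a Benjamini-Hochberg adjusted p under 0.05 over all 15879 were called. The standard error (SE) is the log2 difference divided by the square root of F. The test was also run on simulated counts with the same dispersion for every gene and no difference between the ranges of title numbers. That run does not check the test under the range differences seen here. Depth was 13484776 to 22143504 counts per library, and the common dispersion of 0.0415 (a coefficient of variation of 20.4%) sets the precision. Correlations used log2 CPM with a prior count of 2 and 100000 permutations within group and range of title numbers. Alternatives were DESeq2 1.42.0, limma 3.58.1 voom, other scaling and filters, each range of title numbers alone or as a term, clock components, the share of counts in Rn18s-rs5 with the range, and libraries left out. The Rn18s-rs5 and Myl7 alternatives were chosen after the data were seen. Genes named beside the 8 were the 3 of highest correlation with each, up to 4 genes of smallest p in a list, those called or just outside the threshold in the male mixed field comparison, zinc finger genes near Zfp1003, and Bmal1, Dbp, Per2, Nr1d1, Xist, Ddx3y, Myl7 and Rn18s-rs5 as checks.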

Additional observations from a re-analysis of the deposited data

Results flagged for a closer look

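A single library lay far from its group for 5 of the 8 genes. The gap to the nearest library exceeded Dixon's critical value for groups of 10 libraries in 5 of 64 combinations of gene and group, where chance alone flags about 1 in 20 groups. Glul was low in female mixed field replicate 8, at 364.5 CPM, against 413.1 CPM in the next library. Rhobtb1 was low in male Western replicate 6, at 101.0 CPM. Leo1 was high in male gamma replicate 1, at 24.43 CPM, and without this library the difference between male Western and male gamma libraries was -0.62 on the log2 scale (edgeR, adjusted p = 0.001079). Acyp1 was high in male gamma replicate 7, at 12.07 CPM. Zfp1003 was high in female gamma replicate 2, at 106.7 CPM, against 64.9 CPM in the next library.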

How the results depend on the processing

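The count of the 8 genes called between male Western and male gamma libraries, 4 in the fit over all libraries, was 2 in the first range of title numbers alone, 2 in the second range alone, 0 with 2 clock components as terms and 0 without libraries over 10 CPM of Myl7. Each range alone has 5 libraries a group; for the other settings the cause was not tested. It was 4 under the other 7 alternatives and without each of 20 libraries in turn, where the adjusted p of Glul reached at most 0.01339. Between males and females, where 0 of the 8 were called, 1 was called with title range terms, 2 in the first range alone, 1 in the second range alone, 2 with clock components and 1 with the Rn18s-rs5 share and range terms, and 0 to 1 when 1 of 40 libraries was left out. Rnf114 was the gene called without male Western replicate 1, female Western replicate 3 or female gamma replicate 1. Between ranges in males, where 0 were called, 1 (Rnf114) was called with DESeq2 and 1 without the 2 libraries that stood apart. With the title number as a replicate block 0 of the 8 were called between males and females and 2218 genes in all, against 2391 without it. Same-numbered male and female libraries did not deviate together (20 pairs, median correlation 0.0045, 0 over 0.1), so numbers were not taken as pairs. The counts of the 8 genes called in the 4 female comparisons were 0 under every alternative run. Over all genes the female counts varied more: for mixed field against sham 39 genes were called in the first and 4 in the second range alone, for gamma against sham up to 9, for Western against sham 0 to 37 (3 over all libraries), and for mixed field against gamma 1 to 421 (4 over all libraries). Male Western against male gamma gave 0 to 170 genes, and males against females 561 to 3725. The interaction of the female mixed field with range gave 44 to 333 (220 in the fit over all libraries), and the ranges in females 5630 genes with a filter of at least 10 counts in all, against 3683. Of 1816 log2 values under alternatives 82 changed sign, 0 of them among the 136 of called differences. St6galnac3 had 1.469 to 6.845 CPM in male libraries, the lowest level of the 8 genes, and its values are the least precise by counting. Comparisons that share libraries with the selection were refitted only within each range.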
